A study of Mus musculus with 18 samples.

Results

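The genes described here are 9 components of the DNA methylation machinery, namely the DNA methyltransferases Dnmt1, Dnmt3a and Dnmt3b, the Tet dioxygenases Tet1, Tet2 and Tet3, the maintenance cofactor Uhrf1, and the methyl-CpG binding proteins Mbd1 and Mbd2. They were selected by gene name from the count table, each name matched 1 gene among the 51912 counted, and all 9 were among the 24495 genes with enough reads to be tested (at least 10 read pairs summed over the libraries). The cells were primary astrocytes from the cortex of newborn (postnatal day 0) mice carrying the Aldh1l1-EGFP/Rpl10a transgene, which places an EGFP-tagged ribosomal protein L10a in cells that use the astrocyte promoter Aldh1l1. Cultures grew for 14 days before replating and 6 days after it, and all dishes, controls included, were kept without serum for 24 h before the exposure and during it. Ethanol dishes then received 50 mM ethanol for 24 h and control dishes received none. From 6 control and 6 ethanol dishes the tagged ribosomes were captured by translating ribosome affinity purification (TRAP), and their RNA is called IP. Total RNA taken before the capture from 3 control and 3 ethanol dishes is called input, so 6 dishes were sequenced in both fractions. IP therefore reads ribosome-bound RNA of transgene-expressing cells, while input reads RNA of all cells in the dish. The 18 libraries held 74239854 to 132810705 read pairs on genes.

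DNA methylation places a methyl group on cytosines, mostly where a cytosine precedes a guanine (CpG). Dnmt3a and Dnmt3b set new marks, whereas Dnmt1 copies existing marks onto the daughter strand after replication, and Uhrf1 recognizes the half-methylated site and brings Dnmt1 to it. Tet enzymes oxidize 5-methylcytosine and so start its removal, and Mbd1 and Mbd2 bind methylated CpG and recruit repressor complexes, NuRD in the case of Mbd2. In the developing brain, DNA methylation is known for its part in the switch of neural precursors to making astrocytes.

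Astrocyte markers were abundant in both fractions. Aldh1l1, whose promoter drives the transgene, lay between 186 and 193 CPM (read pairs of a gene per 1000000 pairs of its library, with TMM scaling) in control input and between 367 and 395 CPM in control IP. Of the 14 astrocyte markers 11 were higher in IP, with a median log2 fold change of 0.57, and of the 12 microglia markers 11 were lower, with a median of -2.43. Summed over the list, microglia markers came to 201 to 232 CPM in input and 86.9 to 104 CPM in IP. Snap25 and Mog, markers of mature neurons and of myelinating cells, did not pass 0.117 and 0.122 CPM in any library. Other markers of those lineages were present, and their sums were higher in IP. The summed neuron list came to 162 to 173 CPM in input and 207 to 231 CPM in IP, and the summed oligodendrocyte lineage list to 259 to 283 and 378 to 424 CPM. Stmn2 was the most abundant gene of the first list and Olig1, at 118 to 134 CPM in control input and 203 to 217 CPM in control IP, that of the second. Of the 11 neuron markers tested 5 were higher and 2 lower in IP, with a median log2 fold change of 0.35. Of the 12 oligodendrocyte lineage markers 5 were higher and 4 lower, with a median of -0.32, opposite in sign to the change of their sum. Col1a1, a collagen gene of fibroblasts, lay at 142 to 144 CPM in control input and 42.0 to 50.9 CPM in control IP. The fibroblast and meningeal list as a whole was split. Of its 10 genes 4 were higher and 4 lower in IP, with a median log2 fold change of 0.00, from -1.87 for Dcn to 0.67 for Igfbp2.

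Compared per length, the readers stood at the top of the 9 genes and the rare methyltransferase Dnmt3b at the bottom. In control IP libraries the mean level was 26.1 ± 0.604 CPM per kb of exon (SD, n = 6) for Mbd2, 14.5 ± 0.319 for Mbd1 and 7.84 ± 0.168 for Dnmt1. Uhrf1 followed with 4.03 ± 0.151 CPM per kb and Dnmt3a with 3.11 ± 0.133. The erasers were lower, with mean levels of 1.04 ± 0.0717 CPM per kb for Tet3, 0.373 ± 0.0197 for Tet2 and 0.137 ± 0.0199 for Tet1. Dnmt3b had 0.111 ± 0.0264 CPM per kb, a level whose range over the 6 libraries overlapped that of Tet1. No other neighbours in the order overlapped among the control IP libraries. Input control libraries gave the same order, with 10.7 ± 0.475 CPM per kb for Mbd1 (n = 3) and 0.164 ± 0.00734 for Dnmt3b. After ethanol, Uhrf1 stood below Dnmt3a in both fractions, at 3.02 ± 0.243 against 3.17 ± 0.114 CPM per kb in IP (overlapping ranges) and at 2.24 ± 0.0657 against 2.85 ± 0.11 in input. The place of these 2 genes rested on the length used, because Dnmt3a came before Uhrf1 in all groups when the longest transcript replaced the merged exons.

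**Figure D1:**
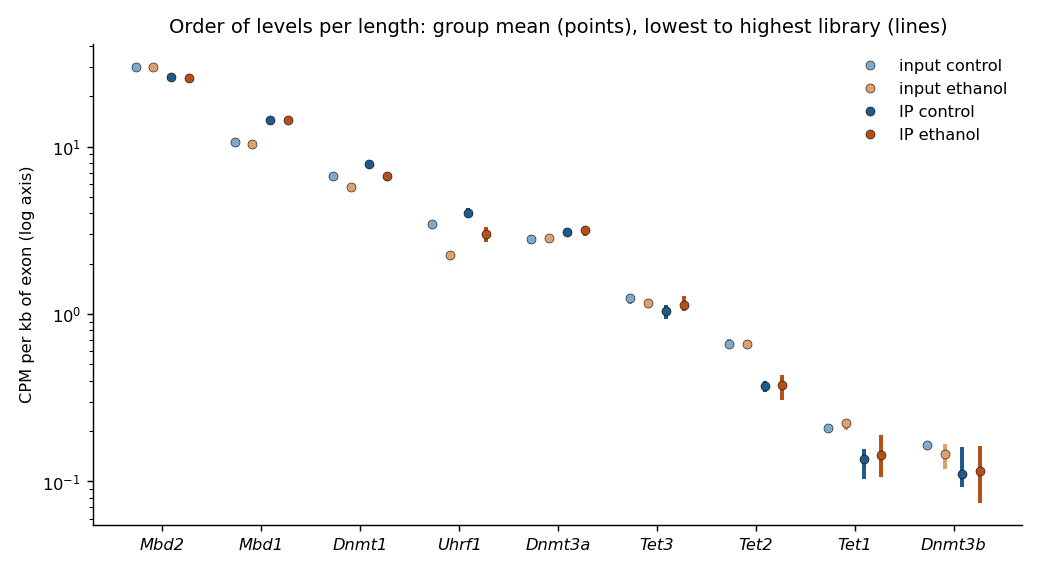
Level of each gene per kb of merged exon in the 4 groups (log axis), with points for group means and lines from the lowest to the highest library. In control IP, Mbd2 lies at 26.1 CPM per kb and Dnmt3b at 0.111 CPM per kb, and the ethanol points of Dnmt1 and Uhrf1 lie below the control points of the same fraction.

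Ethanol lowered both components of maintenance methylation, Dnmt1 and Uhrf1, in both fractions. In IP, 3 of the 9 genes passed the test (edgeR, adjusted p under 0.05), beside 21.4% of all genes tested. Dnmt1 and Uhrf1 fell, beside 9.48% of all genes that were lower, and Tet3 rose, beside 11.9% that were higher. In input, 2 of the 9 passed, beside 15.0% of all genes, and both of them, again Dnmt1 and Uhrf1, fell, beside 7.78% that were lower and 7.21% that were higher. In bulk RNA, fewer cells that make a transcript and less transcript per cell cannot be told apart.

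Dnmt1 (ENSMUSG00000004099, chr9:20907209-20959888 in GRCm38, minus strand) had 48.5, 48.8 and 49.7 CPM in the control input libraries and 42.0, 42.4 and 42.9 CPM in the ethanol input libraries. In IP, the lowest, median and highest controls were 56.0, 57.9 and 59.8 CPM, against 45.7, 49.5 and 51.6 CPM after ethanol. Every ethanol library was below every control library of its fraction. The log2 fold change was -0.23 (SE 0.029, adjusted p = 8.03e-09) in IP, where Dnmt1 fell by 14.6%, and -0.21 (SE 0.034, adjusted p = 3.82e-08) in input, where it fell by 13.7%. The difference between these changes was -0.03 (95% interval -0.12 to 0.07, adjusted p = 0.966), so the fall in the 2 fractions was not distinguishable.

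Uhrf1 (ENSMUSG00000001228, chr17:56303321-56323486, plus strand) had 15.3, 14.8 and 14.2 CPM in the control input libraries and 9.29, 9.84 and 9.48 CPM in the ethanol input libraries. The IP controls ranged from 16.7 to 18.4 CPM with a median of 17.0, and the ethanol IP libraries from 11.5 to 14.2 CPM with a median of 12.8. Again the groups did not overlap in either fraction. Uhrf1 fell by 24.8% in IP (log2 fold change -0.41, SE 0.045, adjusted p = 7.12e-11) and by 35.5% in input (log2 fold change -0.63, SE 0.062, adjusted p = 8.14e-22). Its fall was smaller in IP than in input, by 0.21 on the log2 scale (95% interval 0.06 to 0.36), an interaction that did not pass the adjustment over all genes (adjusted p = 0.737). Groups without overlap were found for these 2 of the 9 genes in each fraction, beside 9.96% of all genes in IP and 27.1% in input.

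**Figure D2:**
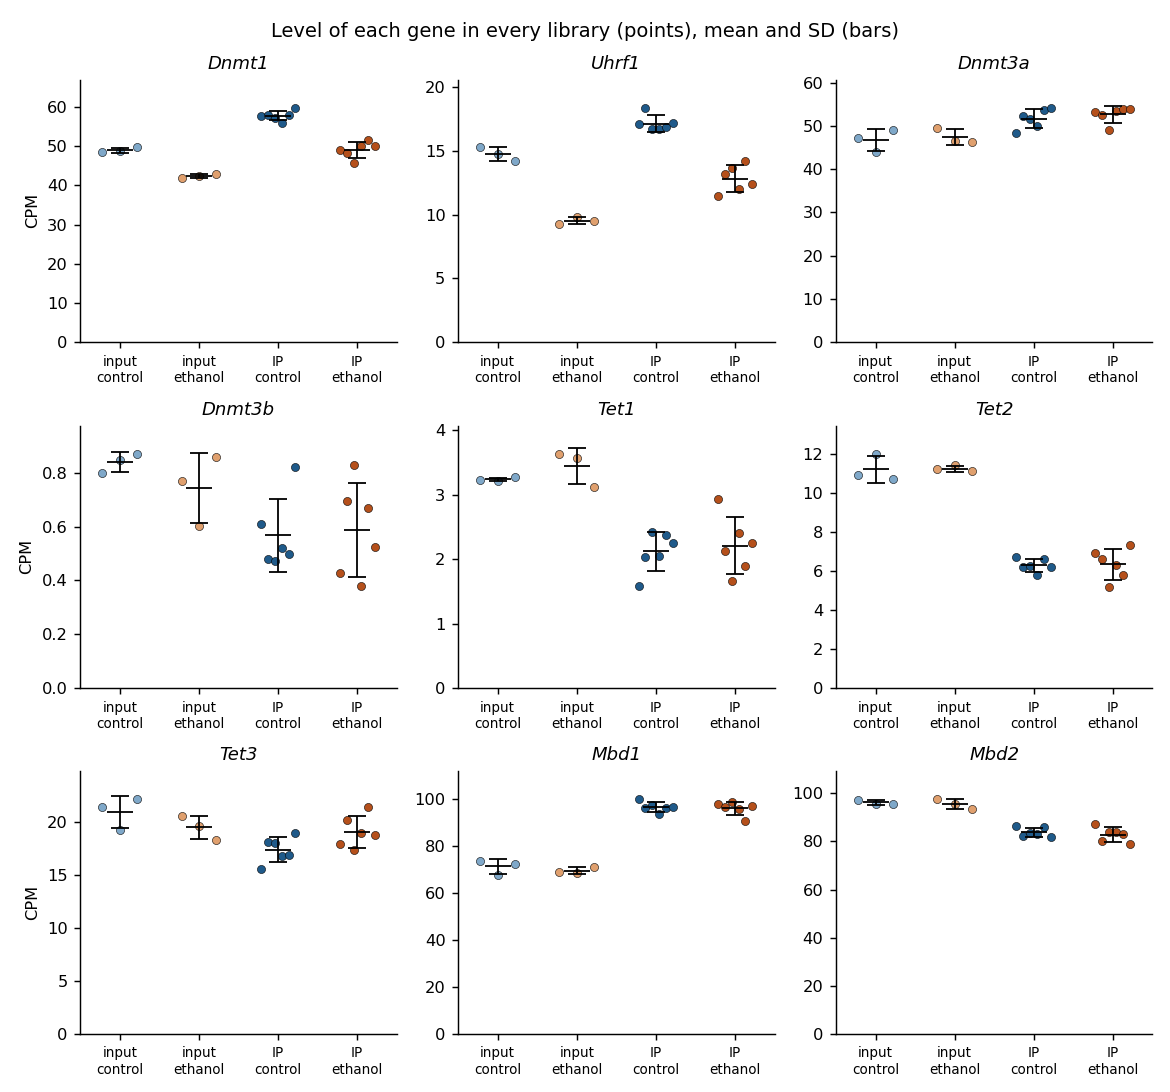
CPM of each gene in every library (points), with the mean and SD of each group (3 libraries in each input group, 6 in each IP group). The ethanol libraries of Dnmt1 and Uhrf1 lie below all controls of the same fraction, Tet2 lies at 10.7 to 12 CPM in input and 5.15 to 7.34 CPM in IP, and Mbd1 at 67.8 to 73.8 CPM in input and 91.0 to 100.0 CPM in IP.

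Because Dnmt1 and Uhrf1 fell together, their promoters were searched for the E2F motif, a short site bound by the E2F factors that switch on genes for DNA replication. The words searched were TTTCCCGC, TTTCGCGC, TTTGCCGC and TTTGGCGC on both strands, in the 250 bases before and 50 bases after each RefSeq transcript start (GRCm38.p6). Promoter sequences were found for 7 of the 9 genes. Among them only Dnmt1, with 2 matches at 1 of its 3 starts, and Uhrf1, with 1 match at 1 of its 2 starts, held a word. Of the 27025 genes with a promoter sequence, 2.6% held one at any of their starts, and of the 32851 single promoters 2.26%. The windows with a match contained 33 CpG each, against a median of 7 over all promoters. Some windows of the 9 genes without a match held more, 57 in Tet2 and 46 and 47 at starts of Dnmt3a, and others held fewer. Every word searched itself contains a CpG, and the share with a match among promoters equally rich in CpG was not computed. The Uhrf1 sequence below covers chr17:56304063-56304244 (plus strand), with the match at -185 from the transcript start at 56304313. The other Uhrf1 start lies further upstream, so the sequence is downstream of that one. The Dnmt1 sequences cover chr9:20952824-20952853 and chr9:20952574-20952603 (minus strand), both inside annotated exons. The exon around the first Dnmt1 match is the first exon of Dnmt1 transcripts that start further upstream. Capitals mark the matches. A match is a run of letters and was not tested for binding, and a promoter without one says only that these words are not in that window.
Uhrf1: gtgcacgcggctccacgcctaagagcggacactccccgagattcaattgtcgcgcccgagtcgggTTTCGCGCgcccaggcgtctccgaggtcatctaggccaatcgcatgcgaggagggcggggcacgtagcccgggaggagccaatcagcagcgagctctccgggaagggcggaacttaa
Dnmt1, first match: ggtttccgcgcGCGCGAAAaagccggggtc
Dnmt1, second match: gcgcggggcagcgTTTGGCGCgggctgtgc

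Genes of DNA replication and cell division fell beside Dnmt1 and Uhrf1. Of 27 S phase genes (a list without the 9 genes described here) 23 were lower after ethanol in IP and 21 in input, none was higher, and the median log2 fold change was -0.26 in IP and -0.27 in input, where the medians of all genes were 0.01 and 0.00. Of 22 mitosis genes, all 22 fell in IP (median -0.31) and 21 fell in input (median -0.47). Relative to the control mean of the same fraction, the summed S phase list stood at 0.864 ± 0.0132 in IP after ethanol (SD, n = 6) and at 0.842 ± 0.0199 in input (n = 3), and Dnmt1 stood at 0.850 ± 0.0345 and 0.866 ± 0.0095. Uhrf1 was lower than these sums, at 0.749 ± 0.0604 in IP and 0.647 ± 0.0193 in input. It lay within the range of the single S phase genes, however. Their log2 fold changes ran from -0.63 to 0.07 in IP and from -0.79 to 0.08 in input, against -0.41 and -0.63 for Uhrf1.

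Within a library, the share of Uhrf1 relative to the S phase sum went down with ethanol, while the share of Dnmt1 depended on the list it was set against. The CPM of Uhrf1 equalled 3.85 to 4.22% of the S phase sum in control IP libraries and 3.14 to 3.70% in ethanol IP libraries. In input the same share was 3.20 to 3.51% in controls and 2.55 to 2.60% after ethanol, so the groups did not overlap in either fraction. Dnmt1 equalled 12.9 to 13.6% of the S phase sum in control IP libraries and 12.3 to 13.5% after ethanol, and 11.1 to 11.2% and 11.2 to 11.7% in input. Against the mitosis sum, Dnmt1 equalled 25.7 to 26.1% in control input libraries and 28.8 to 31.4% after ethanol, without overlap, and 29.3 to 31.7% and 29.8 to 33.9% in IP, with overlap. Uhrf1 equalled 7.39 to 8.11% of the mitosis sum in control input and 6.68 to 6.95% in ethanol input libraries, again apart, whereas its 8.55 to 9.37% in control IP and 7.25 to 8.95% in ethanol IP libraries overlapped. How many other genes would separate in such shares was not computed. In plain CPM, control and ethanol libraries did not overlap for 27.1% of all genes in input and 9.96% in IP. These shares are descriptions, and the part of the replication genes in the fall of Dnmt1 and Uhrf1 was not tested.

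**Figure D3:**
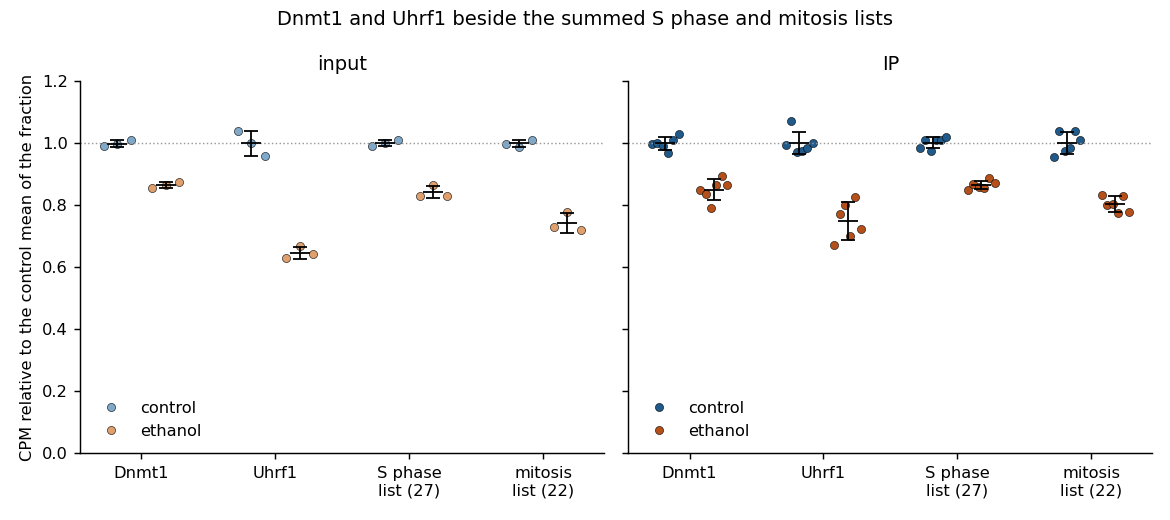
CPM of Dnmt1 and Uhrf1 and summed CPM of the 27 S phase and 22 mitosis genes in every library, divided by the control mean of the same fraction, with the mean and SD. After ethanol, Uhrf1 lies at 0.630 to 0.668 in input and 0.671 to 0.827 in IP, and the S phase sum at 0.830 to 0.865 and 0.849 to 0.886.

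The de novo methyltransferases did not pass the test for ethanol in either fraction. Dnmt3a (ENSMUSG00000020661, chr12:3806007-3914443) had 47.2, 44.0 and 49.1 CPM in control input and 49.6, 46.5 and 46.4 CPM in ethanol input libraries. Its IP values ran from 48.4 to 54.2 CPM (median 52.0) in controls and from 49.0 to 54.0 CPM (median 53.3) after ethanol. The 95% interval of its ethanol effect was -0.03 to 0.09 in IP and -0.05 to 0.09 in input (log2), which leaves room for changes of no more than 6.75% upward in IP. For Dnmt3b (ENSMUSG00000027478, chr2:153649450-153687730) the libraries held only 38 to 82 read pairs each. Its level was 0.471 to 0.823 CPM in control IP and 0.380 to 0.830 CPM in ethanol IP libraries, and the interval of the ethanol effect, -0.33 to 0.42 in IP and -0.62 to 0.26 in input, was too wide to show a change of the size seen for Dnmt1. Read pairs mapping to several places were left out of the deposited counts. How many pairs of Dnmt3b, which has the duplicate Dnmt3c-ps, were lost in this way was not measured, so the level of Dnmt3b is uncertain.

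Among the erasers, Tet1 and Tet2 did not pass the test for ethanol. Tet1 (ENSMUSG00000047146, chr10:62804570-62908996) had 3.23, 3.22 and 3.27 CPM in control input and 3.64, 3.58 and 3.12 CPM in ethanol input libraries, and medians of 2.15 and 2.18 CPM in control and ethanol IP libraries. The ranges overlapped in both fractions, and the interval of the effect was -0.15 to 0.30 in IP and -0.13 to 0.31 in input. Tet2 (ENSMUSG00000040943, chr3:133463679-133545139) had 10.9, 12 and 10.7 CPM in control input and 11.2, 11.4 and 11.1 CPM in ethanol input libraries. In IP its values were 5.78 to 6.70 CPM (median 6.22) in controls and 5.15 to 7.34 CPM (median 6.43) after ethanol, with an interval of -0.11 to 0.14.

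Tet3 (ENSMUSG00000034832, chr6:83362373-83459084), the most abundant of the Tet genes per length, had ethanol effects of opposite sign in the 2 fractions, and its calls were fragile. Control IP libraries ran from 15.5 to 18.9 CPM (median 17.4) and ethanol IP libraries from 17.3 to 21.4 CPM (median 18.8), with overlap. Its log2 fold change in IP was 0.14 (SE 0.047, adjusted p = 0.0228), a rise of 10.4%. The call was lost without IP control replicate 1, 4 or 5 or IP ethanol replicate 2 or 5, where the adjusted p lay between 0.0517 and 0.0904, and it was lost at 0.08 (adjusted p = 0.182) once the dependence on GC content and on transcript length had been taken out of each library. In input, Tet3 had 21.4, 19.2 and 22.1 CPM in controls and 20.5, 19.6 and 18.3 CPM after ethanol. That change of -0.11 did not pass (adjusted p = 0.148), although it did at -0.16 without input control replicate 5 (adjusted p = 0.0305).

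The ethanol effects in the 2 fractions were compared directly by an interaction. Over the 18 libraries no gene of the 24495 passed (0.0% called by edgeR, 1459 genes at an unadjusted p under 0.05, and 4 genes by DESeq2, none of them among the 9). Tet3 had the largest difference of the 9, 0.24 (95% interval 0.07 to 0.40, adjusted p = 0.737). When the dish entered as a block, in the 12 paired libraries, 102 genes passed (0.416%), and Tet3 was the only one of the 9 among them, at 0.29 (adjusted p = 0.021). With the dish as a block and the dependence on GC content and length taken out, the value was 0.20 (adjusted p = 0.324). In single dishes, IP held 0.783, 0.877 and 0.857 times the Tet3 CPM of the input in controls, and 0.923, 1.09 and 1.02 times after ethanol, so the control and ethanol dishes did not overlap. Uhrf1 showed the same kind of separation, with 1.09, 1.14 and 1.21 in control dishes and 1.30, 1.44 and 1.31 in ethanol dishes, but did not pass with the dish as a block (0.25, adjusted p = 0.202). These were 2 of the 9 genes, beside 13.7% of the 18704 genes with reads in all 12 paired libraries whose control and ethanol dishes did not overlap in this ratio.

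Neither reader passed the test for ethanol. Mbd1 (ENSMUSG00000024561) had 73.8, 67.8 and 72.6 CPM in control input and 69.1, 68.7 and 71.2 CPM in ethanol input libraries, and 93.8 to 100.0 CPM (median 96.5) in control IP against 91.0 to 98.8 CPM (median 96.9) in ethanol IP libraries. Mbd2 (ENSMUSG00000024513) had 97.4, 95.5 and 95.8 CPM in control input and 97.5, 95.6 and 93.7 CPM in ethanol input libraries, and medians of 83.2 and 83.5 CPM in control and ethanol IP. The intervals were narrow, since those of Mbd1 ran from -0.05 to 0.05 in IP and from -0.10 to 0.02 in input, and those of Mbd2 from -0.06 to 0.04 and from -0.07 to 0.04, so changes as large as that of Dnmt1 lay outside them.

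**Figure D4:**
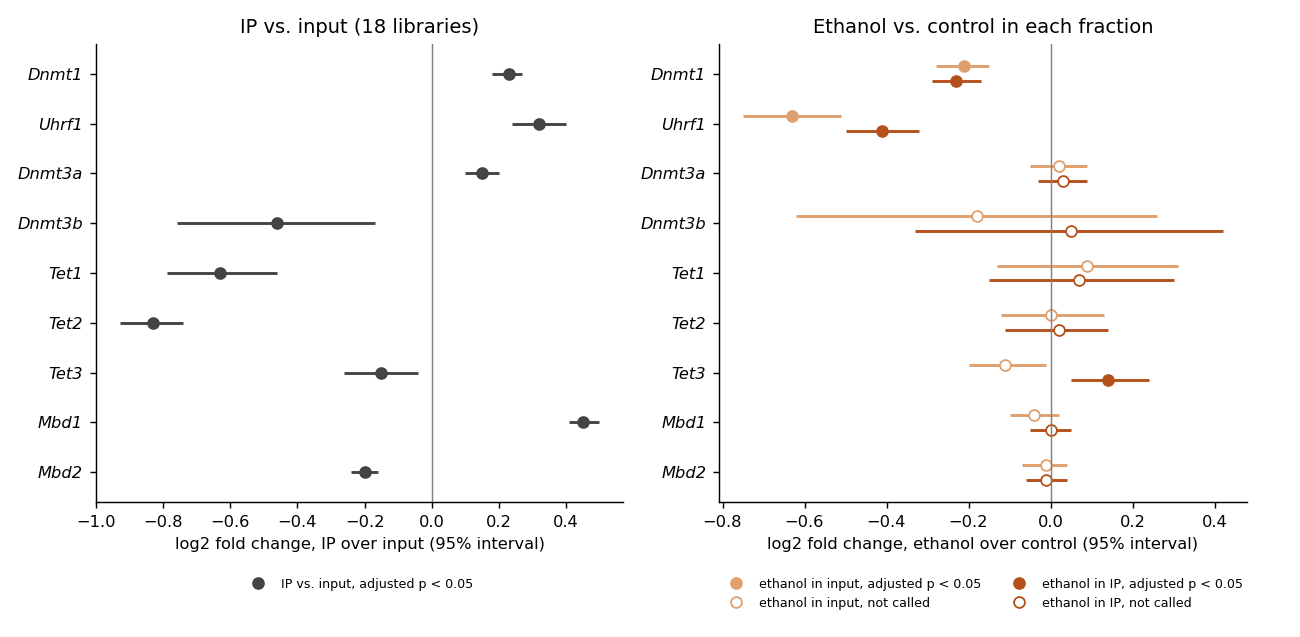
Log2 fold changes with 95% intervals for IP over input (left, 18 libraries) and for ethanol over control in input and IP (right), filled where the edgeR adjusted p is under 0.05. Dnmt1 and Uhrf1 lie below 0 in both fractions on the right, and on the left Tet2 is lowest at -0.83 and Mbd1 highest at 0.45.

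The second question of the design is which transcripts are held on astrocyte ribosomes relative to total RNA of the dish. All 9 genes passed the test of IP vs. input, beside 51.0% of all genes, 4 of them higher in IP (25.2% of all genes) and 5 lower (25.8%). Higher were Dnmt1, Uhrf1, Dnmt3a and Mbd1, and lower were Dnmt3b, Mbd2 and all 3 Tet genes. When the test asked for a change beyond 1.2-fold, 3 of the 9 remained, namely Tet1, Tet2 and Mbd1, beside 20.2% of all genes. By the same stricter test Uhrf1 alone passed for ethanol, in IP (beside 0.388% of all genes) and in input (beside 0.225%).

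Tet2 was the member most depleted from IP. Its input libraries held 10.7 to 12 CPM and its IP libraries 5.15 to 7.34 CPM, without overlap, and the log2 fold change was -0.83 (SE 0.048, adjusted p = 1.16e-25), so IP fell by 43.9% relative to input. Tet1 differed by -0.63 on the log2 scale (SE 0.081, adjusted p = 7.34e-10), again without overlap between 3.12 to 3.64 CPM in input and 1.59 to 2.93 CPM in IP. For Tet3 the value was -0.15 (SE 0.052, adjusted p = 0.0191), with overlapping fractions. That call was lost without input control replicate 4 (adjusted p = 0.0524) and in the 12 libraries of paired dishes without the block (adjusted p = 0.103), while with the dish as a block it held (-0.12, adjusted p = 0.00164). Dnmt3b differed by -0.46 (SE 0.15, adjusted p = 0.00646) and overlapping fractions. The microglia markers, 11 of 12 of which were lower in IP, moved in the same direction as the Tet genes, and the part of such other cells in the input level of the Tet genes was not tested.

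The readers parted between the fractions. Mbd1 was 67.8 to 73.8 CPM in input and 91.0 to 100.0 CPM in IP, which gave 0.45 on the log2 scale (SE 0.022, adjusted p = 7.39e-30). Mbd2 was 93.7 to 97.5 CPM in input and 78.8 to 87.4 CPM in IP, which gave -0.20 (SE 0.021, adjusted p = 1.40e-13). The fractions overlapped for neither gene. Fractions without overlap were found for 4 of the 9 genes (Tet1, Tet2, Mbd1 and Mbd2), beside 25.0% of all genes.

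Dnmt1, Uhrf1 and Dnmt3a were moderately higher in IP. Dnmt1 had a value of 0.23 on the log2 scale (SE 0.024, adjusted p = 2.88e-13) and was higher in IP in 6 of 6 dishes, by 1.15 to 1.22 times. Uhrf1 had 0.32 (SE 0.04, adjusted p = 2.75e-10) and was higher in 6 of 6 dishes, by 1.09 to 1.44 times. Without the term for treatment its value was 0.30 and did not pass (adjusted p = 0.0846). Dnmt3a had 0.15 (SE 0.026, adjusted p = 9.46e-07) and was higher in 6 of 6 dishes, by 1.06 to 1.22 times. Both Tet1 and Tet2 were lower in IP in 6 of 6 dishes, and Mbd1 was higher and Mbd2 lower in 6 of 6.

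**Figure D5:**
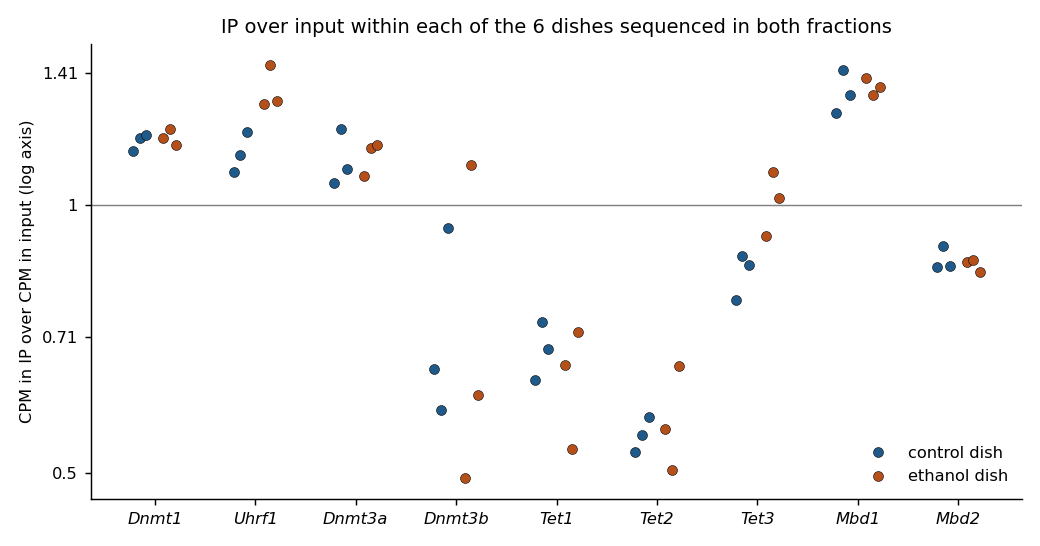
CPM in IP divided by CPM in input within each of the 6 dishes sequenced in both fractions (log axis), 3 control and 3 ethanol dishes. Tet2 lies at 0.504 to 0.660 and Mbd1 at 1.27 to 1.42, and for Tet3 the control dishes lie at 0.783 to 0.877 and the ethanol dishes at 0.923 to 1.09.

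Of 12 tested genes that work beside the writers, 4 were lower and 2 higher after ethanol in IP (median log2 fold change -0.08), and 3 were lower and 1 higher in input (median -0.08). The largest decrease in IP was that of Cdca7, which activates the remodeller Hells, at -0.50 (SE 0.071, adjusted p = 1.29e-07). In input it was that of Lig1, the ligase that joins Okazaki fragments and to which Uhrf1 binds, at -0.28 (SE 0.048, adjusted p = 1.37e-07). Pcna, the sliding clamp that holds Dnmt1 at the replication fork, had log2 fold changes of -0.22 in IP (adjusted p = 1.78e-08) and -0.26 in the input libraries (adjusted p = 1.00e-13). Uhrf2, the close relative of Uhrf1, rose in both fractions, by 0.15 on the log2 scale in IP (adjusted p = 4.16e-05) and by 0.10 in the input libraries (adjusted p = 0.00491). Pcna was chosen for naming after its values were seen. Of these 12 genes, 6 were higher and 4 lower in IP than in input, with Trim28 at the top (0.24, adjusted p = 6.43e-17) and Dnmt3l at the bottom (-1.64, adjusted p = 1.32e-15).

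Among 14 genes of base excision, deamination and related removal of marks, 5 were lower and 4 higher in IP after ethanol, and 2 were lower and 2 higher in input. Ung, the uracil DNA glycosylase, fell most, by 0.31 on the log2 scale in IP (adjusted p = 0.00531) and by 0.38 among the input libraries (adjusted p = 0.0369). Gadd45a, a stress-induced gene linked to active demethylation, rose most, by 0.18 (adjusted p = 5.43e-06) and 0.25 (adjusted p = 1.53e-12). The median of this list was -0.04 in IP and -0.01 in input, close to that of all genes. Between fractions, 8 of the 14 were higher in IP and 3 lower, from 0.36 for Neil2 (adjusted p = 6.86e-07) to -0.33 for Alkbh1 (adjusted p = 6.60e-11).

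Of 13 other genes listed with the readers, 5 were higher and 1 lower in IP after ethanol (median 0.07), and 3 were higher and 1 lower in input (median 0.06). Binding of CpG by their proteins was not tested. Mbd5 had the largest rise in both fractions, 0.22 in IP (SE 0.032, adjusted p = 1.06e-07) and 0.22 in input (SE 0.035, adjusted p = 1.20e-08). Mbd3, a core subunit of NuRD, was the one that fell in IP (-0.13, adjusted p = 0.000474), and Cxxc1, which binds unmethylated CpG, the one that fell in input (-0.09, adjusted p = 0.00592). Of 12 partners of the readers, 5 fell and 1 rose in each fraction. Hdac1, a histone deacetylase of NuRD, fell most in both, by 0.17 on the log2 scale in IP (adjusted p = 4.55e-07) and by 0.15 among the input libraries (adjusted p = 2.92e-06). The one that rose was Gatad2b in IP (0.08, adjusted p = 0.0237) and Setdb1 in input (0.11, adjusted p = 0.0323). Against input, Cxxc1 (0.35, adjusted p = 1.00e-11) and the NuRD helicase Chd4 (0.26, adjusted p = 1.28e-20) were highest in IP, and Mbd6 (-0.45, adjusted p = 6.49e-17) and Mta1 (-0.29, adjusted p = 2.77e-22) lowest.

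The supply of methyl donor and of 2-oxoglutarate, the cosubstrate of the Tet enzymes, was covered by 18 tested genes. After ethanol 7 fell and 2 rose in IP (median -0.01), and 7 fell and 1 rose in input (median -0.03). Shmt1, which loads folate with a carbon unit from serine, fell most in both fractions, by 0.21 on the log2 scale in IP (adjusted p = 0.00134) and by 0.28 among the input libraries (adjusted p = 0.0011). The largest rises were those of D2hgdh in IP (0.15, adjusted p = 0.0028) and Ahcyl2 in input (0.10, adjusted p = 0.00544). Between fractions 12 of the 18 were higher in IP, with the largest increase for Idh2 at 0.47 (adjusted p = 1.27e-13).

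Summed markers of microglia and of endothelial and mural cells differed between control and ethanol libraries, whereas those of neurons and the oligodendrocyte lineage overlapped. The summed microglia list stood at 201 to 208 CPM in control and 218 to 232 CPM in ethanol input libraries, and at 86.9 to 91.3 and 97.6 to 104 CPM in IP. The summed list of endothelial and mural cells stood at 1310 to 1380 and 908 to 976 CPM in input and at 1640 to 1770 and 1060 to 1260 CPM in IP, and 83.0 to 93.5% of that sum was Acta2, the actin of smooth muscle. Acta2 fell by 0.59 in input (adjusted p = 1.31e-155) and by 0.56 in IP (adjusted p = 7.24e-08). Between fractions, Acta2 was higher in IP (0.43 on the log2 scale, edgeR adjusted p = 1.29e-09), unlike the microglia markers. Without it the input sum was at least 159 CPM in controls and at most 158 CPM after ethanol, and the IP sum was 115 to 123 CPM in controls and 111 to 120 CPM after ethanol. Of the 11 tested genes of the list none was higher, and 4 were lower in IP and 3 in input. The endothelial gene Kdr was one of them, at -0.40 on the log2 scale in IP (edgeR, adjusted p = 4.71e-06) and -0.51 in input (adjusted p = 0.000427). The endothelial genes Pecam1, Cdh5, Flt1 and Tek did not pass in either fraction. The neuron sum was 169 to 173 and 162 to 173 CPM in input and 215 to 231 and 207 to 224 CPM in IP, and the oligodendrocyte lineage sum 262 to 283 and 259 to 265 CPM and 403 to 424 and 378 to 411 CPM. The fibroblast and meningeal sum was 5200 to 5400 and 4680 to 5060 CPM in input and 7740 to 8430 and 7310 to 7900 CPM in IP. Igfbp2 made up 94.5 to 98.2% of it. Summed astrocyte markers were 1280 to 1330 and 1340 to 1370 CPM in input and 1980 to 2070 and 2120 to 2220 CPM in IP. Their part in the ethanol response of Dnmt1, Uhrf1 and Tet3 was not tested.

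Across the 18 libraries, the genes most like each member were sought among 11059 genes averaging 5 CPM or more. The points share the 2 fractions and the treatment, so these correlations describe the pattern over the groups. Mcm2, a subunit of the replicative helicase, was among the nearest to Uhrf1 (Pearson r = 0.96), beside the predicted gene Gm42928 (0.96). The nearest to Dnmt1 were Thbs1 (0.99) and Cobl (0.98), and to Dnmt3a Ccdc141 and Helz (0.91 each). Tet2 was closest to Snhg8 and Gas5 (0.98 each), 2 hosts of small nucleolar RNAs, and Tet1 to 2610203C20Rik and Vegfa (0.93 each). Lower values were found for Tet3, with Extl3 (0.86) and Mnt (0.83), and for Dnmt3b, with Nsmce3 (0.76) and Scarf2 (0.74). Mbd1 was closest to Spon1 and Gfod2 (0.99 each) and Mbd2 to Plekha3 and Tipin (0.98 each). Among the 9 themselves, Dnmt1 and Uhrf1 had r = 0.90, Tet1 and Tet2 r = 0.88, and Mbd1 and Mbd2 r = -0.91 over the 18 libraries.

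The counts of the 9 genes came almost wholly from their own strand, since 0.07 to 0.51% of their read pairs lay on the opposite one. Their exons overlapped other annotated genes at only 133 bases, shared by Dnmt3a with Dnmt3aos, and 43 bases, shared by Tet2 with Gm42567.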

How the data were processed

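The authors trimmed paired reads of a stranded, ribosomal RNA-depleted kit with Trimmomatic, aligned them to GRCm38 (mm10) with STAR and deposited raw, unstranded counts of read pairs per gene for 18 libraries, without normalization or pooling. Read pairs mapping to several places (2.95 to 4.77%) were not counted. Here, CPM were computed from the counts with TMM scaling, and CPM per kb with merged exons of GENCODE M21. A sum of at least 10 read pairs over all libraries was required, and the 24495 genes that met it were tested with edgeR 4.0.16 (quasi-likelihood, robust) in R 4.3.3. P-values were adjusted by Benjamini-Hochberg over all of them (threshold 0.05), and the SE is the log2 fold change divided by the square root of F. The model of IP vs. input used all 18 libraries and treatment as a covariate, that of ethanol 12 IP or 6 input libraries, and their difference was an interaction over 18. The study's own test, DESeq2 1.42.0, was an alternative, with other scalings, filters, strand counts, blocks and left-out libraries. The fits were also run on simulated counts drawn from the kind of model that edgeR assumes. Their libraries were independent, so effects of shared dishes were not examined there. Same-numbered input and IP libraries of one treatment come from the same dish by their labels, and their deviations from the group means correlated at 0.034 to 0.206, against -0.127 to 0.059 between dishes. Such deviations cancel within a group, so these ranges are not independent of each other. Dishes were separate, but no label ties them to separate litters, so p-values measure the spread between dishes. No library of a group was a copy of another, since counts differed beyond sampling noise (chi-square divided by its degrees of freedom, at least 3.87). Named genes were the 9 members, the 2 genes most correlated with each, and the called genes with the largest increase and decrease of each list, of which 1 is not reported here. The members and lists were chosen with earlier results of these data known.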

Additional observations from a re-analysis of the deposited data

Results flagged for a closer look

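In 3 cases a single IP library stood apart from the other 5 of its group. Dnmt3a was lowest in IP ethanol replicate 3 (49.0 CPM), Uhrf1 was highest in IP control replicate 2 (18.4 CPM), and Mbd1 was lowest in IP ethanol replicate 5 (91.0 CPM). Chance alone flags about 1 in 20 groups by this criterion, and 18 groups of 6 libraries were examined. Leaving out single libraries kept the ethanol effect of Uhrf1 in IP between -0.44 and -0.38.

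The ethanol effect on Tet3 differed between IP and input when the dish was a block in the 12 paired libraries, with a difference of 0.29 on the log2 scale (adjusted p = 0.021, edgeR). In the fit of 18 libraries the difference of 0.24 did not pass (adjusted p = 0.737). The cause was not tested.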

How the results depend on the processing

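Over 873 values of single genes under the alternatives, 852 kept their side of the threshold, 19 lost a call and 2 gained one, and no called value changed sign. The sign differed 67 times where neither fit made a call. The number of the 9 genes called moved by over 1.5 times under 2 settings. The test against a fold change of 1.2 left 3 for IP vs. input, 1 for ethanol in IP and 1 for ethanol in input. The 12 libraries with the dish as replicate block gave 1 (Tet3) for the difference between fractions. Leaving out 1 library gave 8 to 9 for IP vs. input, 2 to 3 for ethanol in IP, 2 to 3 for ethanol in input and 0 for the difference. Other settings gave 8 to 9 for IP vs. input (8 without the treatment term or, in the 12 paired libraries, without the replicate block), 2 to 3 for ethanol in IP (2 with GC and length trends removed), 2 for ethanol in input and 0 for the difference. With the replicate number as a block, ethanol called 3 in IP and 2 in input. Control and ethanol dishes share only that number (correlation of deviations -0.149 to 0.399 in IP and 0.037 to 0.074 in input). Depth limits Dnmt3b, with 38 to 82 read pairs per library.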
